A study of Homo sapiens with 14 samples.

Results

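An equal mixture of HEK-293T and Jurkat cells was compared with each line sequenced alone, which took 6 of the 14 libraries of the series. The members were chosen by their labels. The 2 mixed libraries held 50% HEK and 50% Jurkat cells, the 2 pure HEK libraries held 100% HEK cells, and the 2 pure Jurkat libraries held 0% HEK cells. HEK-293T is an adherent line derived from human embryonic kidney that carries the SV40 large T antigen, obtained from ATCC and grown in DMEM. Jurkat is a suspension line from a human T cell leukemia, grown in RPMI. Both media contained fetal bovine serum, glutamine and penicillin–streptomycin, no agent was added to any group, and both lines were harvested 2 days after passage. Cell suspensions were mixed to a total of 1000000 cells per tube, so the percentages are shares of cells and not of RNA. Polyadenylated RNA was taken with oligo(dT) beads, and ERCC spike-in RNA was added at a fixed amount. Sequencing was paired, the second read served to tell the samples apart, and the reads aligned were single-end. The labels call libraries of 1 condition technical replicates, so that every p-value below measures only the spread between such libraries, and each line stands as a single culture.

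A sequencing library reports the relative amounts of transcripts and not the number of cells. When cells of unequal RNA content are pooled, each transcript in the pool is a sum over the lines weighted by the RNA that each line brings, and the larger or more active cell takes the larger share of the reads. Lymphoid cells such as Jurkat are small with little cytoplasm, whereas HEK-293T cells are large. A mixture of equal cell numbers is therefore a place where the share of cells and the share of RNA can be set side by side, gene class by gene class.

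Gene counts in the 6 libraries were 9452243 and 15158082 for pure HEK, 28303668 and 16404261 for the mixture, and 4468822 and 6204316 for pure Jurkat, so that 3 counts were worth 0.106 to 0.671 CPM. CPM is the expected count of a gene divided by the total over all genes of that library with ERCC left out, times 1000000. All 7 T cell receptor and CD3 chain genes together reached 1222 and 1461 CPM in pure Jurkat and 3.81 and 1.39 CPM in pure HEK. KRT18, an epithelial keratin, was at 34.0 and 32.3 CPM in pure HEK and at 0.224 and 0 CPM in pure Jurkat, so both labels matched their defining genes. The file names of the series fall into 2 groups whose meaning is not given. Both pure HEK libraries carry one of these groups and both pure Jurkat libraries the other, so in the pure libraries the line and the file-name group cannot be told apart, while the mixed libraries carry 1 of each. Within each pair, the libraries differed by more than counting noise. Chi-square divided by its degrees of freedom was 129 for the mixed pair, 25.1 for pure HEK and 32.4 for pure Jurkat. This quotient grows with depth and does not rank the pairs.

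The sequences below show the promoters of 4 genes named for the largest differences between the mixture and a pure line: PTPRC and FYB1, carried into the mixture by Jurkat, and DSP and RAB13, carried by HEK. Each window spans 250 bases before to 50 bases after a transcription start in RefSeq on GRCh38.p14, and the first listed window is shown where a gene has 2. RefSeq windows were at hand for 89 of the 144 genes named by rule. Capitals mark AGGAAG or its reverse complement CTTCCT, the letters of an ETS family core, and GGGCGG or its reverse complement CCGCCC, the letters of a GC box; both strands were searched and neighbouring matches may overlap.
PTPRC (chr1:198638790-198639089, plus strand): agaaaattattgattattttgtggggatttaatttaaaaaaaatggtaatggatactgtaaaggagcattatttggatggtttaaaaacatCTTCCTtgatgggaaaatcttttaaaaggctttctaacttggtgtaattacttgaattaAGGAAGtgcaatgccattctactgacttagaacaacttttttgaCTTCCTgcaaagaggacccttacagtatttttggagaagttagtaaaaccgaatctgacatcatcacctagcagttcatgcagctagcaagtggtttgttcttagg
FYB1 (chr5:39270600-39270899, minus strand): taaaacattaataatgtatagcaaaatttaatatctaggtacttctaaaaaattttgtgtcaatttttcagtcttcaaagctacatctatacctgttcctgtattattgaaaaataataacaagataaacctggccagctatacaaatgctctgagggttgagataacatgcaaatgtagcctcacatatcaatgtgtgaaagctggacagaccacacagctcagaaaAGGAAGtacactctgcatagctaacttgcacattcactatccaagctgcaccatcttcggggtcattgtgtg
DSP (chr6:7541421-7541720, plus strand): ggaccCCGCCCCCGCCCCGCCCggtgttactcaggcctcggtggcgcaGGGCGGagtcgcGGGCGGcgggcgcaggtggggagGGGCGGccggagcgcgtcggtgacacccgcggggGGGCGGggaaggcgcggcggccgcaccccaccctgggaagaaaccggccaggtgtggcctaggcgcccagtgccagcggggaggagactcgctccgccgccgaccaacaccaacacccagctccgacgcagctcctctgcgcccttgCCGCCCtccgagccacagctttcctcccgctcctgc
RAB13 (chr1:153986290-153986589, minus strand): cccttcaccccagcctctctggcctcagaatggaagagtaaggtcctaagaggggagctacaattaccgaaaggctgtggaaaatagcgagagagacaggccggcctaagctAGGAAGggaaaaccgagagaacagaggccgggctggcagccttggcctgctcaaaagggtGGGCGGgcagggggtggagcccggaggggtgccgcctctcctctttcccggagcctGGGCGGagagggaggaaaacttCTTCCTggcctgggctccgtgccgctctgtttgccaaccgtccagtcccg
The PTPRC window held 3 ETS core matches and no GC box, the FYB1 window held 1 and none, the DSP window held no ETS core and 8 GC boxes, and the RAB13 window held 2 of each. Over all 35116 RefSeq windows of the same length, 33.65% held an ETS core match and 44.95% a GC box match, so neither is rare, and a match describes letters only.

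The mixed profile stood close to pure HEK and far from pure Jurkat. Of 17679 genes tested with edgeR, 341 were higher in the mixture than in pure HEK (1.93% of genes tested) and 6 were lower (0.0339%), together 1.96%, at a Benjamini-Hochberg adjusted p under 0.05. Against pure Jurkat the same test called 3604 genes higher (20.4%) and 2338 lower (13.2%), together 33.6%, close in number to the 3490 (19.7%) and 2643 (14.9%) genes, together 34.7%, that separated pure HEK from pure Jurkat. Among the 4552 genes whose mean log2(CPM + 1) reached 5 or more, only 16 were called higher than pure HEK (0.351%) and 0 lower, against 535 higher (11.8%) and 595 lower (13.1%) than pure Jurkat. Over all genes, 1262 reached an unadjusted p under 0.05 against pure HEK in the same edgeR fit, and DESeq2 called 427 genes higher and 17 lower. The 6 genes lower than pure HEK were pseudogenes and unnamed transcripts of low level, and the largest value any of them reached in either pure HEK library was 31.9 CPM.

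Over those 4552 genes the log2 profile of the first mixed library correlated with the pure HEK mean at r = 0.914 and with the pure Jurkat mean at r = 0.755. For the second mixed library the values were 0.898 and 0.635. In the first library 5.76% of genes lay more than 2-fold from pure HEK and 22.8% more than 2-fold from pure Jurkat. The shares in the second library were 5.16% and 40.4%. These are descriptions over genes that share libraries, and genes are not replicates. The 2 mixed libraries were correlated with each other at r = 0.854 and differed by more than 2-fold at 14.4% of genes. This sets 1 library against 1, whereas the pure HEK profile is a mean of 2 libraries. The values thus cannot tell whether a mixed library lay nearer to pure HEK or to its partner.

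The classes of genes that separate the pure lines did not behave alike in the mixture. The class was set by the pure libraries only, but these also enter each contrast with the mixture. Of the 3490 genes higher in HEK, 3117 were higher in the mixture than in pure Jurkat and 4 were lower than in pure HEK. Of the 2643 genes higher in Jurkat, 1974 were lower in the mixture than in pure Jurkat and 338 were higher than in pure HEK. Of the 11546 genes not called between the lines, 3 were higher and 2 lower in the mixture than in pure HEK. Against pure Jurkat, 487 of these genes were higher (4.22%) and 364 lower (3.15%). Among the Jurkat genes, it was those with the widest gap that stood out from pure HEK. There 264 of 434 genes with a log2 gap of 6 or more were called, but 0 of 1132 genes with a gap under 2. In a sum of both lines a gene with a narrow gap rises less above pure HEK than one with a wide gap, so such counts depend on the gap itself.

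The side of the midpoint on which a gene lay was tested in the same edgeR fit by a contrast of the mixture with the average log2 level of the lines. In all, 1541 genes lay above the midpoint (8.72%) and 96 below it (0.543%), together 9.26%. Of the genes higher in HEK, 1397 lay above, which is on the HEK side, and 0 below. Of the genes higher in Jurkat, 73 lay below, on the HEK side, and 95 above, on the Jurkat side. The midpoint is on the log scale, where a sum of unequal amounts always lies above it when the gap is wide enough. Thus 92 of the 95 Jurkat genes above it had a log2 gap of at least 6. The same limit holds for genes higher in HEK, where at wide gaps a place above it does not tell a large HEK share from a small one. With a gap under 2, 46 of 1055 of them lay above. From 4 to under 6 it was 412 of 513, and from 6 on 647 of 999. Without the first mixed library 299 genes lay below the midpoint, and without the second 6 did.

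The genes of the T cell lineage were visible in the mixture at a fraction of their Jurkat level. Over all genes tested, 1.93% were higher in the mixture than in pure HEK and 13.2% lower than in pure Jurkat. All 7 genes of the T cell receptor and its CD3 chains were higher in the mixture than in pure HEK and lower than in pure Jurkat, with median log2 differences of 7.18 and -2.40, beside 0.08 and 0.14 over all genes tested. The summed level of the list was 241 ± 49.7 CPM in the mixture (SD, n = 2) and 1341 ± 169 CPM in pure Jurkat (SD, n = 2). TRBC1, a constant region of the receptor beta chain, was at 63.7 and 111 CPM in the mixture, at 343 and 437 CPM in pure Jurkat and at 0.741 and 0.198 CPM in pure HEK. CD3D, a signaling chain of the receptor complex, was at 37.4 and 72.3 CPM in the mixture against 260 and 238 CPM in pure Jurkat, a log2 difference of -2.40 ± 0.38 (SE, adjusted p = 0.00201 by edgeR). CD3G was the one chain that was higher in the first mixed library, at 63.8 CPM against 25.7 CPM in the second, with 379 and 511 CPM in pure Jurkat. For all 3 genes the groups did not overlap. With spike-in totals as library sizes (spike-in scaling), which moved the median of all genes tested to 1.81 against pure Jurkat, all 7 chains were still called higher than pure HEK, but only 2 of 7 were called lower than pure Jurkat, with a list median of -0.79. The difference of CD3D from pure Jurkat then was -0.79 (adjusted p = 0.173 by edgeR) and that of TRBC1 -0.75 (adjusted p = 0.245 by edgeR).

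Downstream of the receptor, 13 of 18 genes of proximal signaling were higher in the mixture than in pure HEK (72.2%). Against pure Jurkat 17 were lower (94.4%). The shares over all genes tested were 1.93% and 13.2%. FYB1, an adaptor protein of activated T cells, was at 141 and 106 CPM in the mixture, at 1385 and 1172 CPM in pure Jurkat and at 2 and 4 counts in the pure HEK libraries. Its mixed mean was 0.0966 of the pure Jurkat mean (log2 difference -3.54 ± 0.39 SE, adjusted p = 0.000346 by edgeR). LCK, the kinase that phosphorylates the CD3 chains, was at 24.8 and 49.5 CPM in the mixture and at 152 and 141 CPM in pure Jurkat. TESPA1, a regulator of receptor signaling in thymocytes, was at 12.2 and 9.69 CPM against 115 and 138 CPM. The second mixed library held 2.00 times the LCK of the first and less TESPA1 than the first, so the order of the mixed libraries was not shared by the list. Under spike-in scaling 12 of 18 were higher and 1 lower than in pure HEK, and 7 were lower and 1 higher than in pure Jurkat, with a median of -1.13 for the latter. LCK was one that lost its call against pure Jurkat (log2 difference -0.60, adjusted p = 0.287 by edgeR).

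Among 18 leukocyte surface proteins, 13 were higher in the mixture than in pure HEK (72.2%), beside 1.93% of all genes tested. Against pure Jurkat 15 were lower (83.3%) and 1 was higher (5.56%), beside 13.2% and 20.4% of all genes. PTPRC, the CD45 phosphatase found on all nucleated blood cells, was at 140 and 96.4 CPM in the mixture, at 1363 and 1670 CPM in pure Jurkat and at 0.846 and 0.198 CPM in pure HEK, which left it at 0.0778 of its Jurkat mean. SPN, the sialomucin CD43, was at 139 and 131 CPM against 1600 and 1703 CPM in pure Jurkat, and at 0.423 and 0.924 CPM in pure HEK. CD99, an adhesion molecule of many cell types, was at 110 and 81.6 CPM in the mixture, 48.5 and 53.7 CPM in pure HEK and 90.5 and 93.9 CPM in pure Jurkat, and it passed neither test (adjusted p = 0.409 and 0.83 by edgeR). The member against the list was CD37, a tetraspanin, at 3.57 and 3.89 CPM in the mixture, 5.52 and 8.85 CPM in pure HEK and 0.448 and 1.10 CPM in pure Jurkat. Under spike-in scaling 13 of 18 were higher and 1 lower than in pure HEK, and only 3 were lower and 2 higher than in pure Jurkat, with a median of -0.83.

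Of 13 T lineage transcription factors, 8 were higher in the mixture than in pure HEK (61.5%) and 12 lower than in pure Jurkat (92.3%). The shares over all genes tested were 1.93% and 13.2%. The median log2 differences of the list were 2.19 and -2.73. These factors had a measurable level in HEK, so the step from pure HEK was smaller than for the receptor chains. TCF7, a factor of T cell development, was at 20.9 and 15.6 CPM in pure HEK, 98.3 and 122 CPM in the mixture and 688 and 725 CPM in pure Jurkat. LEF1, its partner in Wnt signaling, was at 35.7 and 32.8 CPM, 103 and 119 CPM, and 938 and 797 CPM in the same order. BCL11B, which fixes T cell identity, was at 11.8 and 11.5 CPM, 57.4 and 43.3 CPM, and 578 and 537 CPM. All 3 were called in both comparisons, and none was called on either side of the midpoint (adjusted p = 0.821, 0.161 and 0.178 by edgeR). Against pure HEK, leaving out 1 library ended the call of BCL11B and of LEF1 in 4 of 6 cases each and of TCF7 in 1, with adjusted p up to 0.173, 0.428 and 0.075 by edgeR. Under spike-in scaling the list held 4 genes higher and 3 lower than in pure HEK (median 0.36) and 4 lower and 1 higher than in pure Jurkat (median -1.05). None of the 3 was then called against pure HEK, with log2 differences of 0.70 for TCF7, -0.14 for LEF1 and 0.36 for BCL11B (adjusted p = 0.237, 0.807 and 0.542 by edgeR), and TCF7 was not called against pure Jurkat (adjusted p = 0.0648 by edgeR). LMO2, a factor of early blood cells, went against the list, being higher in the mixture than in pure Jurkat with 0.495 and 1.52 CPM in the mixture and 0 in both pure Jurkat libraries.

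The hematopoietic actin regulators and the GIMAP GTPases of lymphocytes followed the same order. In the first list 12 of 14 genes were higher than in pure HEK and 14 lower than in pure Jurkat. In the second the counts were 6 and 7 of 7. In both lists these are 85.7% and 100%, beside 1.93% and 13.2% of all genes tested. LCP1, the leukocyte plastin, was at 52.3 and 60.2 CPM in the mixture and at 582 and 397 CPM in pure Jurkat. ARHGAP30, a GTPase-activating protein, was at 58.9 and 30.5 CPM against 619 and 670 CPM. GIMAP7 was at 60.0 and 25.4 CPM against 414 and 492 CPM, with 1 count in each pure HEK library. GIMAP5, with 0 counts in both pure HEK libraries, was at 5.23 and 8.11 CPM in the mixture, which was at least 54.7-fold higher than pure HEK against a floor of 3 counts over the group. EVL, an actin polymerase also present in HEK, was at 64.8 and 48.1 CPM in pure HEK, 66.3 and 86.6 CPM in the mixture and 274 and 287 CPM in pure Jurkat, and was called only against Jurkat. Under spike-in scaling 3 of 14 actin regulators and 2 of 7 GIMAP genes were called lower than in pure Jurkat, with medians of -0.66 and -1.18. EVL and GIMAP5 were not among them (log2 differences -0.41 and -1.05, adjusted p = 0.516 and 0.0971 by edgeR).

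Class I antigen presentation differed from these lists in that both lines expressed it. Of 13 genes, 3 were higher in the mixture than in pure HEK (23.1%) and 7 lower than in pure Jurkat (53.8%). The shares over all genes tested were 1.93% and 13.2%. The median log2 differences of the list were 0.37 and -0.99, and the second turned to 0.67 under spike-in scaling. The 3 genes higher than in pure HEK were PSMB8 and PSMB9, subunits of the immunoproteasome, and NLRC5, the activator of class I genes. PSMB8 was at 9.75 and 10.8 CPM in the mixture, 0.423 and 0.330 CPM in pure HEK, and 44.5 and 62.9 CPM in pure Jurkat. B2M, the light chain of class I molecules, was at 114 and 203 CPM in the mixture, 86.1 and 79.6 CPM in pure HEK, and 397 and 343 CPM in pure Jurkat, a log2 difference from pure Jurkat of -1.43 that lost its call without 1 library in 2 of 6 cases and turned to 0.19 under spike-in scaling. HLA-C, a class I heavy chain, was at 69.3 and 132 CPM in the mixture, 91.5 and 85.9 CPM in pure HEK, and 62.6 and 73.0 CPM in pure Jurkat, so that the second mixed library was above all 5 other libraries. Its reads can be shared with other class I genes of near-identical sequence.

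Outside the lists, the rule of largest difference named few further genes on the Jurkat side. IFI16, an interferon-inducible DNA sensor, was at 102 and 43.4 CPM in the mixture, 528 and 1305 CPM in pure Jurkat, and 2 and 5 counts in pure HEK. CDK6, a kinase of the G1 phase, was at 398 and 255 CPM in the mixture, 178 and 170 CPM in pure HEK, and 4828 and 3473 CPM in pure Jurkat. IKZF2, the lymphoid factor Helios, was at 44.8 and 39.9 CPM in the mixture, 8.04 and 14.5 CPM in pure HEK, and 764 and 363 CPM in pure Jurkat. CDK6 and IKZF2 were called lower than in pure Jurkat but were not called against pure HEK (adjusted p = 0.613 and 0.0972 by edgeR).

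**Figure D1:**
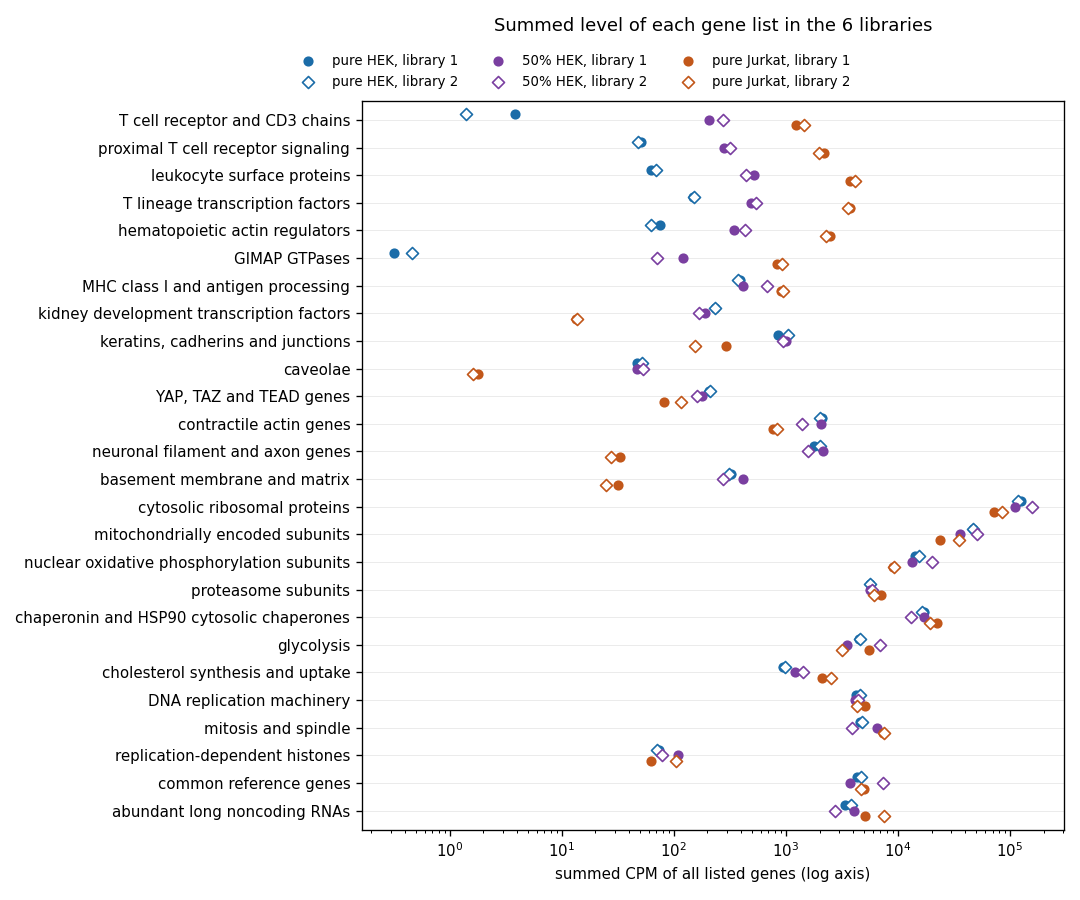
Summed CPM of every listed gene of each group (log axis) in the 6 libraries; blue is pure HEK, purple the 50% mixture and orange pure Jurkat, with filled circles for the first and open diamonds for the second library of each. The mixture lies between the lines for the lists of the T cell side, with 206 and 276 CPM for the receptor chains, and overlaps pure HEK for the caveolae at 46.6 and 53.3 CPM.

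No gene of the 7 lists that mark the HEK side passed the test against pure HEK in either direction, beside 1.93% of all genes called higher and 0.0339% lower, so a count of 0 lower is near the general share. Against pure Jurkat, 8 of 10 kidney development transcription factors and 13 of 15 keratins, cadherins and junction genes were higher in the mixture. So were 3 of 4 caveolar genes, 7 of 8 neuronal filament and axon genes and 11 of 13 basement membrane and matrix genes. No gene of these lists was lower. Over all genes tested, 20.4% were higher and 13.2% lower than in pure Jurkat. With spike-in totals as library sizes the same lists were lower in the mixture than in pure HEK at 9, 12, 4, 8 and 10 of these genes, while the median of all genes tested moved to -1.81 against pure HEK and to 1.81 against pure Jurkat. The differences of these lists from pure HEK under spike-in scaling were thus close to that of the genes as a whole, with medians from -1.99 to -1.82.

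Of the kidney factors, EMX2, a homeobox gene of the urogenital system, was at 22.7 and 20.3 CPM in pure HEK, 20.4 and 14.4 CPM in the mixture and 0 in pure Jurkat, so that the mixture was at least 61.8-fold higher than pure Jurkat. HOXA10, a patterning factor named by the rule of largest difference, was at 233 and 238 CPM in pure HEK, 143 and 153 CPM in the mixture and 0.448 and 0.289 CPM in pure Jurkat. Its mixed mean was 0.627 of the pure HEK mean without overlap of the groups, and the test did not call it (adjusted p = 0.798 by edgeR).

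The junction gene DSP, which encodes desmoplakin, showed how the mixed libraries can part. It was at 157 and 304 CPM in pure HEK, 383 and 169 CPM in the mixture and 0.448 and 1.13 CPM in pure Jurkat. The first mixed library exceeded both pure HEK libraries, and the second lay between them. DSG2, a desmosomal cadherin, went the other way with 154 and 256 CPM in the mixture beside 206 and 161 CPM in pure HEK. CAV1 and CAVIN1, which build caveolae, were at 10.4 and 16.7 CPM and at 28.8 and 24.6 CPM in the mixture, against 14.7 and 15.0 CPM and 22.1 and 27.4 CPM in pure HEK. For both the mixed and the pure HEK libraries overlapped.

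Neuronal intermediate filaments, for which HEK cells are known, were not called between the mixture and pure HEK. NEFM was at 1152 and 1324 CPM in pure HEK, 1409 and 1025 CPM in the mixture, and 9.62 and 4.84 CPM in pure Jurkat. NEFL was at 141 and 145 CPM, 192 and 145 CPM, and 0.671 and 1.13 CPM in the same order. MAP1B, a microtubule protein of axons, was at 336 and 395 CPM in pure HEK, 414 and 207 CPM in the mixture and 1.79 and 1.13 CPM in pure Jurkat. In the last gene the mixed libraries lay on both sides of pure HEK.

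Of 13 contractile actin genes, 3 were higher and 1 was lower in the mixture than in pure Jurkat, shares of 23.1% and 7.69%. Over all genes tested the shares were 20.4% and 13.2%, so these counts were near the general share. The list separated the lines weakly, with 4 genes higher and 1 lower in pure HEK than in pure Jurkat. CALD1, the actin regulator caldesmon, had the largest difference of all abundant genes from pure Jurkat, at 575 and 423 CPM in the mixture and 2.01 and 0.645 CPM in pure Jurkat (log2 difference 8.45 ± 0.62 SE, adjusted p = 0.000122 by edgeR). Pure HEK held 775 and 739 CPM, above both mixed libraries, and the difference was not called (adjusted p = 1 by edgeR). The member that was lower was CNN2, a calponin, with 11.1 and 15.6 CPM in the mixture, 20.1 and 26.7 CPM in pure Jurkat, and 5.03 and 5.84 CPM in pure HEK. Of 13 genes of the YAP, TAZ and TEAD growth control pathway, 6 were higher than in pure Jurkat (46.2%) and 0 lower. Under spike-in scaling 11 of 13 contractile genes and 11 of 13 genes of this pathway were lower than in pure HEK. The list medians were then -1.95 and -2.09. The rule of largest difference also named CDKN2A, the cell cycle inhibitor p16, at 116 and 175 CPM in the mixture beside 178 and 155 CPM in pure HEK and 0.671 and 0.161 CPM in pure Jurkat. RAB13, a GTPase of tight junctions, was at 212 and 232 CPM beside 249.6 and 299 CPM in pure HEK and 0.714 and 0.967 CPM in pure Jurkat.

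For genes that every cell uses, the shares called were set beside those of all genes. None of 79 cytosolic ribosomal protein genes was called between the mixture and pure HEK, and 14 were higher in the mixture than in pure Jurkat, a share of 17.7% beside the 20.4% of all genes tested. Their summed level was 110631 and 157252 CPM in the mixture, 124855 and 118271 CPM in pure HEK, and 72813 and 84699 CPM in pure Jurkat. RPLP0 was at 663 and 1544.5 CPM in the mixture beside 808 and 1280.2 CPM in pure HEK, and RPS6 at 3628 and 6713 CPM beside 4456 and 3332 CPM. The count of 14 rests on the pair: it was 46 without the first mixed library and 13 without the second, 27 with the file-name group as a term and 31 with library totals alone. Ribosomal protein genes have many processed pseudogenes, and their reads can be split among copies.

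Of 77 nuclear subunits of oxidative phosphorylation, 21 were higher in the mixture than in pure Jurkat and 0 lower, a share of 27.3% beside the 20.4% of all genes, and 42 and 8 were higher without the first and without the second mixed library. Of the 13 mitochondrially encoded subunits only MT-ND3 was called, at 3265 and 4864 CPM in the mixture against 1751 and 1745 CPM in pure Jurkat. Against pure Jurkat, 2 of 31 proteasome subunits and 1 of 13 cytosolic chaperones were higher, and 1 and 0 were lower. Of 38 genes of DNA replication 1 was higher and 1 lower, and of 30 genes of mitosis 0 and 4. The shares higher were 6.45%, 7.69%, 2.63% and 0%, beside 20.4% of all genes tested. The shares lower were 3.23%, 0%, 2.63% and 13.3%, beside 13.2%, so the mitotic count was at the general share. The 4 mitotic genes were CDK1, BUB1, TTK and INCENP, and without the first mixed library 12 were lower and 3 higher. Under spike-in scaling the median of this list turned from -0.68 to 1.14.

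Cholesterol synthesis was the shared list with the most members below pure Jurkat, 7 of 20, beside 2 above. These are 35% and 10%, beside 13.2% lower and 20.4% higher over all genes tested. INSIG1, a sterol sensor, was at 342 and 315 CPM in the mixture, 217 and 202 CPM in pure HEK, and 589.9 and 1067 CPM in pure Jurkat. FDFT1, the squalene synthase, was at 59.7 and 96.8 CPM against 38.1 and 40.9 CPM in pure HEK and 168 and 168 CPM in pure Jurkat. CYP51A1, which acts later in the same route, was one of the 2 above, at 77.6 and 61.9 CPM in the mixture, 60.9 and 67.8 CPM in pure HEK, and 7.61 and 6.71 CPM in pure Jurkat. The list's median log2 difference from pure Jurkat was -0.78 and turned to 0.88 under spike-in scaling.

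Of 15 genes of the ATF4 and unfolded protein response, which answers amino acid shortage and misfolded protein, 11 were higher in the mixture than in pure Jurkat and 0 differed by the test from pure HEK. SESN2 was at 194 and 205 CPM in the mixture, 260 and 265 CPM in pure HEK, and 36.7 and 43.0 CPM in pure Jurkat. PHGDH, the first enzyme of serine synthesis, was at 208 and 349 CPM, 285 and 265 CPM, and 62.0 and 71.2 CPM. Of 17 interferon-stimulated genes 8 were lower than in pure Jurkat and 1 higher, a list median of -1.45 that turned to 0.16 under spike-in scaling, and OAS2 was the one member called higher than in pure HEK. JUN, an immediate early gene, was at 352 and 349 CPM in the mixture, 310 and 420 CPM in pure HEK, and 13.4 and 20.8 CPM in pure Jurkat. BIRC3, a target of NF-kB in T cell activation, was at 9.47 and 4.57 CPM, 0.846 and 0.660 CPM, and 73.8 and 72.0 CPM. Of 13 p53 targets 5 were higher and 1 lower than in pure Jurkat, of 10 hypoxia genes 4 and 0, of 10 heat shock genes 1 and 1, of 14 immediate early genes 2 and 2, and of 23 histone genes 4 and 1. Over all genes tested 20.4% were higher and 13.2% lower than in pure Jurkat, so the counts of the heat shock, immediate early and histone genes were near or below that share. None of those 5 lists held a gene called against pure HEK. The summed heat shock genes were at 2926 and 2672 CPM in the mixture and at 1875 and 1902 CPM in pure HEK. In pure Jurkat they were at 2150 and 2317 CPM, so the sum was highest in the mixed libraries. The excess of the sum lay largely in HSPD1, the most abundant member, whose values are given further below. Over the list the median log2 difference was 0.10 from pure HEK and 0.05 from pure Jurkat. Over all genes tested these medians were 0.08 and 0.14.

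Among the markers of other cell types, only the myeloid and erythroid lists were so low that none of their genes passed the filter for testing. The endothelial, B cell and fibroblast lists held genes well above the floor. The summed myeloid markers were at 0.141 and 0.977 CPM in the mixture, and the erythroid markers at 0.742 and 1.10 CPM. Of the endothelial markers, PECAM1 was called, at 7.80 and 6.10 CPM in the mixture, 0.513 and 0.139 CPM in pure HEK and 28.8 and 46.7 CPM in pure Jurkat, while VWF and KDR were at 0.106 CPM or less in the mixture. Of the B cell markers, CD79A was at 0.883 and 2.44 CPM in the mixture and 5.15 and 6.93 CPM in pure Jurkat. COL1A1, a fibroblast collagen, was at 8.65 and 15.9 CPM in the mixture, 10.9 and 9.96 CPM in pure HEK, and 2.94 and 3.22 CPM in pure Jurkat.

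A plain sum of the lines lies between them, and 3 genes were above both lines by both tests (0.017%) and 2 below both (0.0113%). EIF4ENIF1, the transporter of the cap-binding factor eIF4E (chr22:31436977-31496108, minus strand, GENCODE release 44), was the one protein-coding gene of the 5. It was at 76.7 and 83.7 CPM in the mixture, 24.6 and 28.3 CPM in pure HEK, and 30.0 and 26.2 CPM in pure Jurkat. The log2 difference was 1.66 ± 0.30 (SE, adjusted p = 0.0234) from pure HEK and 1.33 ± 0.30 (SE, adjusted p = 0.01) from pure Jurkat by edgeR. In the other mixtures it was at 37.7 and 43.2 CPM at 80% HEK, 23.2 and 24.3 CPM at 60%, 32.5 and 24.1 CPM at 40%, and 41.5 and 48.6 CPM at 20%, so no other library of the series reached the 50% pair. Its gene model overlaps those of DRG1 and SFI1. Under spike-in scaling its difference from pure HEK turned to -0.20. Leaving out any 1 of the 6 libraries ended the call against pure HEK, with log2 differences of 1.52 to 1.77 and adjusted p from 0.0512 to 0.364 by edgeR, and leaving out either pure Jurkat library ended the call against pure Jurkat (highest adjusted p = 0.0692 by edgeR).

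The other 2 genes above both lines were the pseudogene HSPD1P6, at 3.33 and 16.6 CPM in the mixture and between 0.736 and 2.18 CPM in the pure libraries, and an unnamed transcript inside TEFM, ENSG00000275185, at 5.13 and 7.83 CPM. HSPD1, the parent gene of HSPD1P6, was at 1391 and 1355 CPM in the mixture against 454 and 659 CPM in pure HEK and 677 and 1123.5 CPM in pure Jurkat, and passed neither test (adjusted p = 0.231 and 0.424 by edgeR). Below both lines were the pseudogene PSPC1P1, at 0.257 and 0 CPM, and ENSG00000264558 inside KPNB1, at 0 in both mixed libraries. Each of these 4 lost the call against pure HEK in 2 to 5 of the 6 fits without 1 library. The counts outside both lines moved with single libraries: 13 genes were above and 13 below without the first mixed library, 18 and 0 without the second, 11 and 7 without the first pure HEK library, 8 and 9 without the second, 1 and 1 without the first pure Jurkat library, and 0 and 1 without the second.

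The place of the mixture between the lines was then read on the linear scale, where 0 is the pure Jurkat mean and 1 the pure HEK mean. This place equals the HEK share of the RNA if the pool is a plain sum of both lines. For the 729 genes at least 16-fold higher in Jurkat, the summed level was 5445 and 5652 CPM in the mixture and 42542 and 42372 CPM in pure Jurkat, which placed the mixed libraries at 0.888 and 0.883. For the 1512 genes at least 16-fold higher in HEK, the sums were 34233 and 32466 CPM in the mixture and 40731 and 41717 CPM in pure HEK, and the places were 0.828 and 0.785. In the Jurkat class 712 and 718 of the 729 genes lay above 0.5, the HEK share of the cells, and in the HEK class 1356 and 1337 of 1512 did. No test was made of these shares, since each library gives 1 value.

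The gene-level spread around these sums differed between the classes and between the libraries. For Jurkat genes the median place was 0.880 with quartiles of 0.833 and 0.915 in the first library, and 0.873 with quartiles of 0.757 and 0.928 in the second. For HEK genes the median was 0.753 (quartiles 0.616 and 0.939) in the first and 0.904 (quartiles 0.656 and 1.20) in the second. In the second library 627 of 1512 HEK genes exceeded the pure HEK mean, against 318 in the first. Over all 3490 genes called higher in HEK, with smaller gaps included, the sums placed the mixed libraries at 0.761 and 0.977, and over all 2643 genes called higher in Jurkat at 0.870 and 0.952. In these sums the pair differed by 0.043 or less for the wide-gap classes and by more for the classes with smaller gaps included.

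**Figure D2:**
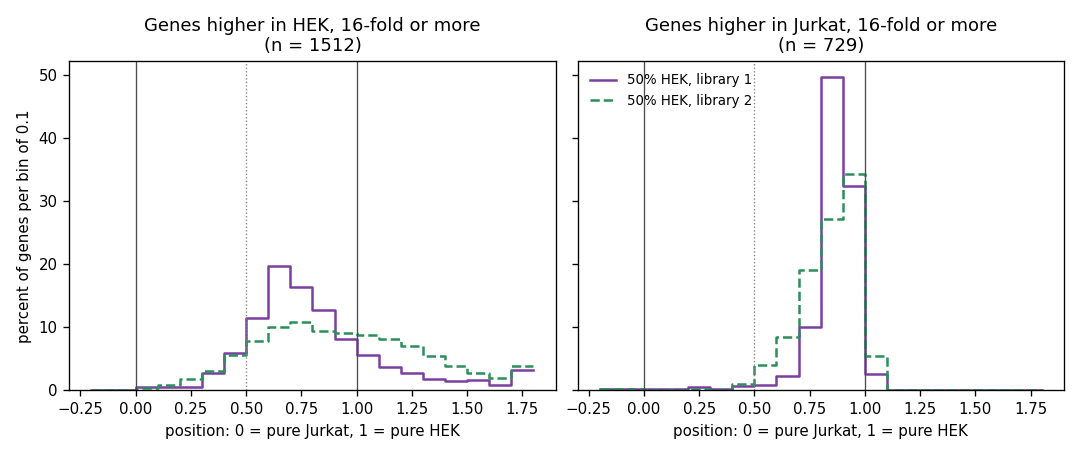
Histograms of the place of each gene between the lines (horizontal axis, 0 is the pure Jurkat mean and 1 the pure HEK mean, with values outside the range counted in the end bins) for genes at least 16-fold higher in HEK (left, n = 1512) or in Jurkat (right, n = 729); the vertical axis is the percent of genes per bin, with a solid line for the first and a dashed line for the second mixed library. Most genes lie right of 0.5 (dotted line), and the medians of the Jurkat class are 0.880 and 0.873.

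The other mixtures put these places in order. By the Jurkat class the libraries at 80% HEK were at 0.965 and 0.967, those at 60% at 0.918 and 0.914, the 50% pair at 0.888 and 0.883, those at 40% at 0.832 and 0.831, and those at 20% at 0.656 and 0.637. The pairs did not overlap in this class. By the HEK class the 50% pair, at 0.828 and 0.785, overlapped the 40% pair at 0.844 and 0.803 and lay below the 60% pair at 0.890 and 0.851. The class was chosen on the pure libraries, which also set the scale.

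The spike-in RNA gave a scale that does not rest on the total of the genes. Gene counts per ERCC count were 147 and 97.3 in pure HEK, 44.6 and 25.5 in the mixture, and 12.1 and 12.3 in pure Jurkat. The mixture was thus below pure HEK and above pure Jurkat in both libraries, and its first library held more gene counts per spike-in than its second. Per ERCC count, the Jurkat class stood at 0.469 and 0.278 of pure Jurkat in the 2 mixed libraries, and the HEK class at 0.303 and 0.164 of pure HEK. With equal cell numbers each line made up 0.5 of the cells, and the fraction recovered was 1.55 and 1.69 times higher for the Jurkat class than for the HEK class. The pure HEK libraries differed from each other by a similar factor in gene counts per spike-in, and the part of that spread in these fractions was not tested.

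The 2 mixed libraries had the largest gap by this count of any of the 7 pairs of the series. Of 6655 genes with a pair mean of at least 20 CPM, 550 were more than 2-fold higher in the first library and 410 in the second, 14.4% in all. The share was 3.89% in the pure HEK pair, 10.4% in the pure Jurkat pair, 2.04% at 80%, 1.99% at 60%, 9.06% at 40% and 3.59% at 20%. No test is possible of 1 library against 1, and the mixed pair had the largest counts while the pure Jurkat pair had the smallest. The file-name groups did not follow this order: the 60% pair spans both groups as the 50% pair does, and both 40% libraries share 1 group.

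The disagreement ran with gene length. In the 50% pair the median log2 ratio of the first to the second library was -0.56 for 1488 protein-coding genes under 1000 bases, -0.20 for 1000 to under 2000, -0.03 for 2000 to under 4000, and 0.12 for 985 genes of at least 4000 bases, and the Spearman correlation with length was 0.261 over 6297 genes. The 40% pair showed a like slope, with medians of -0.41, -0.19, -0.06 and 0.08 and a correlation of 0.242. The correlation was -0.015 in the 60% pair, taken as the second over the first library. It was 0.128 in the 80% pair and -0.058 in the pure HEK pair. These correlations run over genes of 1 pair of libraries and carry no p. Gene by gene, the ratios of the 50% and the 40% pair, which share no library, were correlated at r = 0.617 over 6127 genes, and of the genes beyond 2-fold and first-library-higher, 136 were common, which is 26.8% of the 508 in the 50% pair and 35.7% of the 381 in the 40% pair. Of those second-library-higher, 32 were common, which is 9.28% of the 345 in the 50% pair and 25.6% of the 125 in the 40% pair. With the 80% pair the correlation was 0.396 over 6107 genes.

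**Figure D3:**
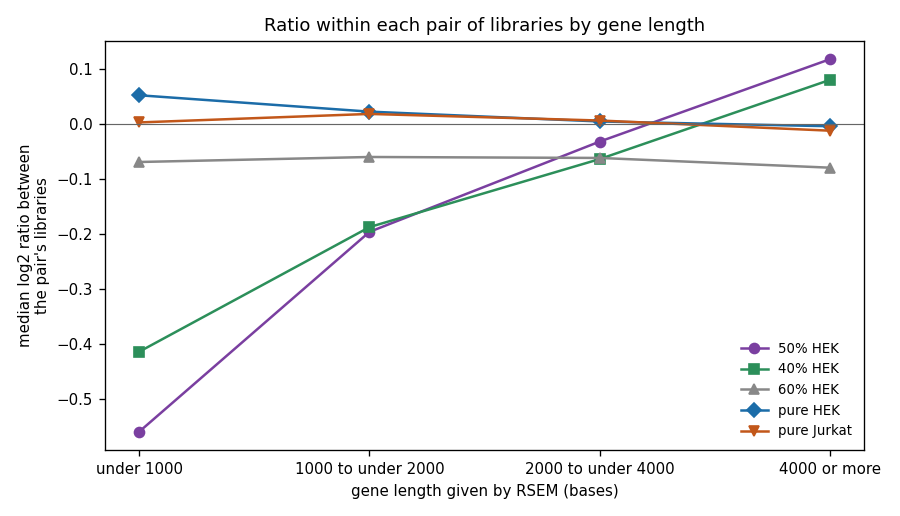
Median log2 ratio of the first to the second library of each pair (vertical axis) for protein-coding genes in 4 bins of the length given by RSEM (horizontal axis, bases); each line is a pair. The 50% and 40% pairs climb from -0.56 and -0.41 for the shortest genes to 0.12 and 0.08 for the longest, and the other 3 pairs are nearly level.

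Among the gene lists with at least 7 genes tested, the widest gaps were in glycolysis and in the common reference genes. GAPDH belongs to both lists, so their gaps are not separate. The pair as a whole leaned to the second library, with a median log2 ratio of -0.14 over the 6655 genes compared. That lean was not taken out of the counts below. All 17 glycolysis genes were higher in the second mixed library, and their sum was 3539 CPM in the first and 6964 CPM in the second, beside 4497 and 4618 CPM in pure HEK and 5491 and 3179 CPM in pure Jurkat. GAPDH was at 642 CPM in the first and 1859 CPM in the second mixed library, a ratio of 2.90, while the pure libraries ranged from 918 to 1144 CPM. ENO1 was at 756 and 1084 CPM and LDHB at 508 and 950 CPM. All 14 common reference genes were also higher in the second library, with ACTB at 601 and 1145 CPM. In the 40% pair 0 of 17 glycolysis genes and 1 of 14 reference genes were higher in the first library. In the 60% pair 5 and 6 were higher in the second library, which carries the file-name group of the first mixed library.

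The lists of subunits did not all lean one way. Their counts stand beside a median log2 ratio of -0.14 over all genes compared in the pair. Of 79 ribosomal protein genes 10 were higher in the first mixed library, of 77 nuclear oxidative phosphorylation genes 6, of 13 mitochondrially encoded subunits 2, and of 13 class I genes 2, with log2 ratios of the sums of -0.51, -0.59, -0.50 and -0.73. The proteasome subunits were at -0.07, with 9 of 31 higher in the first library, and the cytosolic chaperones at 0.41, with 6 of 13. Other lists leaned to the first library in their sums, at 0.77 for mitosis and spindle, 0.60 for matrix and 0.55 for contractile genes, although only 17 of 30, 4 of 13 and 5 of 13 members were higher there. CENPF, a large kinetochore protein, was at 1615 CPM in the first and 441 CPM in the second library. LAMC1, a laminin chain, was at 147 and 35.4 CPM, and the long noncoding RNA MALAT1 was at 2242 and 405 CPM. The sum of such a list can thus rest on a few members.

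**Figure D4:**
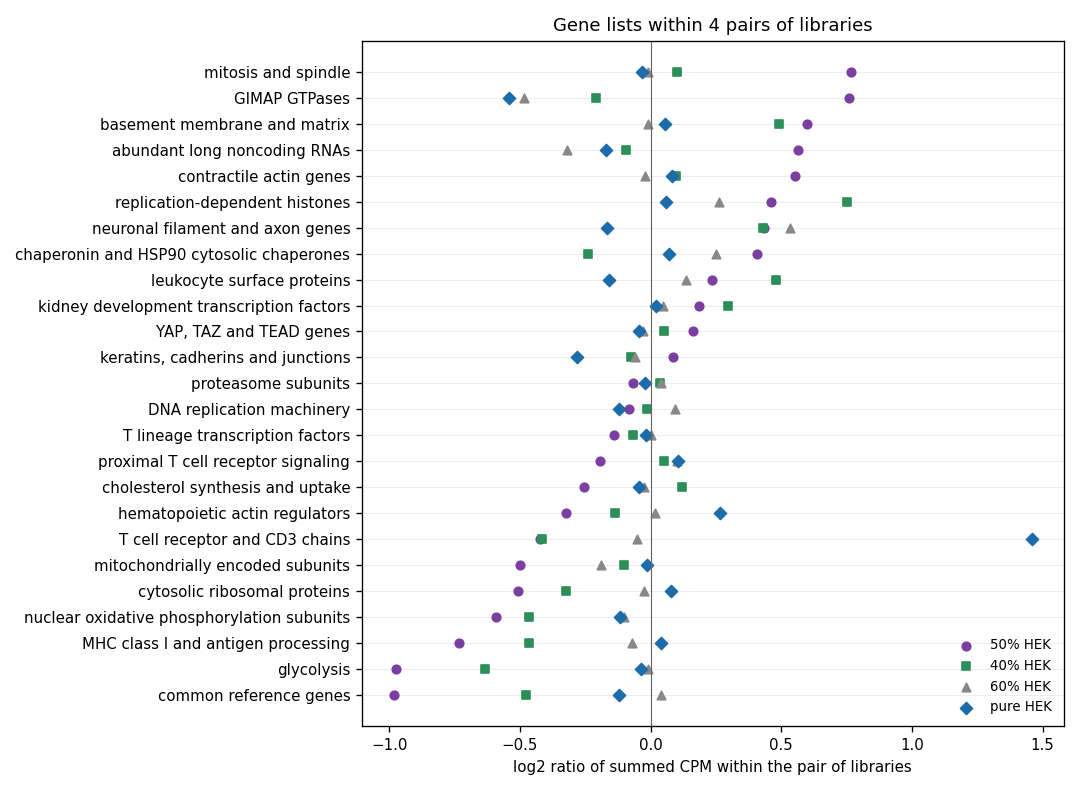
Log2 ratio of the summed CPM of each gene list within 4 pairs of libraries (horizontal axis; first over second library, and for the 60% pair the library of the first mixed library's file-name group over the other); each row is a list with at least 7 genes tested. The 50% pair runs from -0.98 for glycolysis and the reference genes to 0.77 for mitosis, and the 60% pair stays near 0 for both ends at -0.01 for glycolysis and -0.01 for mitosis.

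The median ratio differed between the gene classes. Genes at least 16-fold higher in HEK had a median log2 ratio of 0.04 between the mixed libraries and those at least 16-fold higher in Jurkat -0.08. Beyond 2-fold in the first and in the second library were 9.42% and 4.87% of 308 genes in the former class, and 11.3% and 5.66% of 53 in the latter. All genes called higher in HEK had a median of -0.42, those called higher in Jurkat 0.16, and those not called -0.16. More genes higher in HEK were beyond 2-fold in the second library (101 of 1160) than in the first (48), and for genes higher in Jurkat the counts were 9 and 61 of 802.

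Single genes with the widest gaps were mostly not protein-coding. Of the 20 genes named for the largest ratio of CPM + 1, 14 are not protein-coding, beside 358 of the 6655 genes compared in this pair (5.38%). Another gene model overlaps 15 of the 20, beside 70.4% of the 6642 genes of the pair that have a position, so overlap was near the general share. TUBA1C, an alpha tubulin, was at 1.18 CPM in the first and 223 CPM in the second mixed library, while ENSG00000258232, which overlaps it, was at 148 and 0 CPM. RPL41P1 was at 0 and 113 CPM and HSP90AB2P at 91.9 and 2.31 CPM, both being pseudogenes of abundant genes. A pair of abundant protein-coding genes, picked after their values were seen, showed wide gaps as well. YWHAE, a 14-3-3 protein, was at 3814 and 607 CPM in the mixture, 581 and 612 CPM in pure HEK, and 972 and 453 CPM at 40% HEK. TUBA1B was at 84.2 and 620 CPM in the mixture, 191 and 197 CPM in pure HEK, and 80.8 and 424 CPM at 40% HEK. For both genes the 40% pair was ordered as the 50% pair was.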

How the data were processed

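Poly(A) RNA of 14 libraries was sequenced, and the 6 libraries of the 50% mixture and of both pure lines were compared. The authors aligned reads with STAR 2.6.1b to GRCh38 and deposited expected counts and TPM per gene from RSEM 1.3.1, per the submitters' processing notes and the file headers; the annotation is not given in the sources used here, and neither is whether counting used strand. Of 58440 genes, 57754 matched GENCODE release 44 by identifier, which gave names and positions, and 92 ERCC rows were left out of library sizes. Expected counts were rounded and tested with edgeR 4.0.16 (TMM, filterByExpr, glmQLFit and glmQLFTest, two-sided, Benjamini-Hochberg adjusted p under 0.05) in 1 fit of the 3 groups. The study used DESeq2 for its pure comparison, and DESeq2 1.42.0 was run as an alternative, as were other scalings, no filter, all 14 libraries, the file-name group as a term and leaving out each library. The script was tested on simulated data. CPM for shares and pairs was over genes only, with a pseudocount of 1 in ratios. The deposited TPM served as an alternative for the pairs and for the summed shares of RNA over all genes called between the lines. A table of the whole series repeats the expected counts and was not used.

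Genes were named by rule: the 5 largest differences in each direction at a mean log2(CPM + 1) of at least 5 without overlap, the 3 most abundant members of each list and members against it, up to 10 genes on each side outside both lines, and the 10 widest gaps in each direction between the mixed libraries. Other genes named where a count is 5 or fewer, and KRT18, HSPD1, YWHAE, TUBA1B, GIMAP5, LAMC1 and genes of the cholesterol list beyond its 3 most abundant, were picked after their values were seen or as checks of the labels. The comparison, its gene lists and rules were chosen with earlier results of these data known. Depth ranged from 4468822 to 28303668 gene counts in the 6 libraries; floors of 3 counts cover counting error only. Some named genes are not reported here.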

Additional observations from a re-analysis of the deposited data

How the results depend on the processing

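No paired analysis was possible because the labels give the groups no shared replicate numbers. In the order higher and lower, counts against pure HEK were 737 and 87 with no filter on low counts, the lower count was 14019 with spike-in totals as library sizes, 17 by DESeq2 and 11 with the file-name group as a term, and leaving out 1 library gave 231 to 284 and 5 to 22. Against pure Jurkat, spike-in totals gave 11015 and 263, and leaving out 1 library 2069 to 3843 and 1196 to 2615, with 1244 lower without the second mixed library. With library totals alone the split was 4194 and 1938, or 68.4% of calls higher beside 60.7%. Between the pure lines, spike-in totals gave 15951 and 486, and leaving out 1 library 2275 to 3986 and 1418 to 2916. Above and below the midpoint, no filter gave 2788 and 253, all 14 libraries 2909 and 448, the file-name term 2763 and 492, the spike-in totals 44 below, DESeq2 444 below, and leaving out 1 library 834 to 1276 and 6 to 299. Above both lines there were 9 genes with library totals alone; spike-in totals gave 17 above and 40 below both lines, DESeq2 7 and 9, no filter 101 and 35, leaving out 1 library 0 to 18 and 0 to 13, and below both lines RLE and all 14 libraries left 1 each and the file-name term 0. With deposited TPM, 22.0% of genes in the 50% pair, 8.35% in pure HEK, 16.5% in pure Jurkat and 4.93% at 60% were beyond 2-fold. Of 67 tested values of named genes under 13 alternatives, 805 of 871 kept direction and side of the threshold, 63 lost the call and 3 changed sign, all with spike-in totals: B2M against pure Jurkat (0.19), EIF4ENIF1 (-0.20) and LEF1 (-0.14) against pure HEK. The causes were not tested. The summed shares of RNA over all genes called between the lines moved by less than 1 SD between the mixed libraries under the alternatives run, and the shares of the 16-fold classes were not run under them. Depth limits the pure Jurkat libraries most, where 3 counts were worth up to 0.671 CPM.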
